A study of Mus musculus with 6 samples.

Results

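H3K4me3 domains with H3K36me3 on one flank are described here for mature CD4+ and CD8+ T cells of the mouse thymus. A domain was a stretch of 1000 to 2800 bp on chromosomes 1 to 19 in which the H3K4me3 reads of both cell types together stood at least 4 times above the input. It counted as one-sided when the 20 kb before and the 20 kb after it held at least 100 H3K36me3 reads together, with at least 4 times more on one flank. The flank with more reads is called the marked side and the other the quiet side. Of 9218 domains of this width, 9068 had at least 100 H3K36me3 reads and 2989 of those were one-sided, which is 32.96%. They came from 17327 H3K4me3 domains of any width. A ratio under 2 between the flanks, called two-sided below, was found in 3605 domains, a ratio from 2 to 4 in 2474, and 150 domains had too few reads. Two-sided names the ratio alone and sets no level of the mark over input on either flank.

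Trimethylation of lysine 4 of histone H3 is placed at the start of active or poised genes and is recognised by proteins that help assemble transcription complexes. Trimethylation of lysine 36 is laid down by SETD2, a methyltransferase that travels with elongating RNA polymerase II, so it covers the body of transcribed genes and is sparse at their starts. A gene start that feeds a single transcribed unit therefore usually has H3K4me3 at the start and H3K36me3 on the downstream flank only, while a start with transcribed units on both flanks can carry H3K36me3 on both. Mature single-positive thymocytes are cells that have completed selection in the thymus and carry either the CD4 or the CD8 coreceptor.

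The cells came from C57BL/6 mice, the strain of all samples, and were mature CD4+ or mature CD8+ T cells from thymus. For each cell type 1 library was made with rabbit polyclonal antibodies to H3K4me3, 1 with rabbit polyclonal antibodies to H3K36me3, and 1 input without antibody, all from mononucleosomes cut with micrococcal nuclease. The labels give no age, sex or number of animals. With 1 library per group no difference has a replicate check, no p-value is given, and every fold compares 2 libraries, not the conditions. On chromosomes 1 to 19 the H3K36me3 libraries held 6599587 reads in CD4 and 6604331 in CD8 cells, the H3K4me3 libraries 10491937 and 11878642, and the inputs 9913123 and 9716101. Distinct start positions made up 54.3% of the H3K4me3 reads in CD4 and 31.3% in CD8 cells, and between 91.1% and 97.6% in the other 4 libraries. In bulk chromatin, more cells carrying a mark and more of the mark per cell cannot be told apart. No mm9 gene annotation was used here, so domains are given by position and the labelled cell types were not checked against marker genes.

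The H3K36me3 flanks of the one-sided domains follow from the way they were chosen and are given as a description. The marked side held a median of 544 reads over both cell types, with quartiles of 388 and 723, and the quiet side a median of 67, with quartiles of 51 and 90. In CD4 cells the median was 269 reads on the marked side and 35 on the quiet side, and in CD8 cells 268 and 32. Scaled to library size as RPM and divided by the input RPM, the marked side stood at 4.57 times input in CD4 and 4.78 in CD8 cells, and the quiet side at 0.631 and 0.604. Two-sided domains, with the flank holding more reads taken as marked, had medians of 1.87 in CD4 and 1.81 in CD8 cells on that flank and 1.31 and 1.25 on the other. The quiet side was below the input level in 2546 one-sided domains (85.2%) and in 1433 two-sided domains (39.8%). The level far from any enriched window was 31.8% of input, so the medians of the quiet flanks lay under input but above that level, while the lowest 5% of quiet flanks were at or under 0.310 times input in CD4 and 0.284 in CD8 cells.

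**Figure D1:**
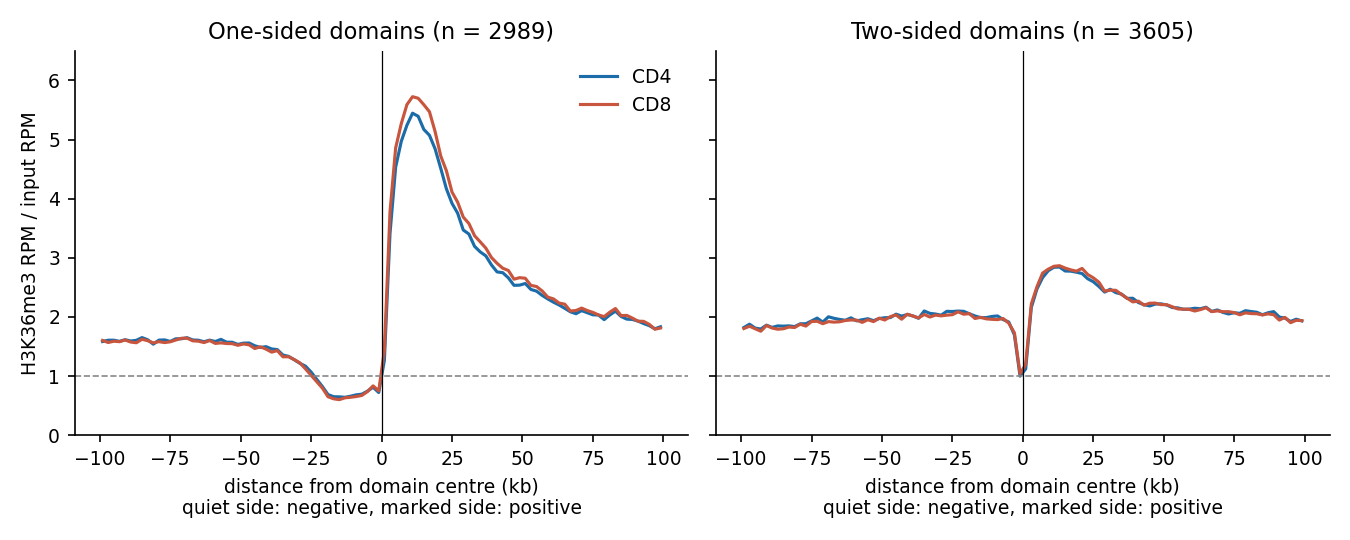
Mean H3K36me3 over input (ratio of RPM) in 2 kb bins against distance from the domain centre in kb, marked side positive, for one-sided and two-sided domains in CD4 and CD8 cells. In one-sided domains the curve peaks at 11 kb on the marked side, at 5.44 times input in CD4 and 5.72 in CD8 cells, and stays under input on the quiet side near the domain.

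H3K36me3 rose within a few kb of the domain on the marked side. The distances of the bins below are from the domain centre. Inside the one-sided domains the mark stood at 0.807 times input in CD4 and 0.849 in CD8 cells, with medians of only 2 and 1 H3K36me3 reads per domain. Input itself was low there: 50 bp from the centre on the quiet side it had 0.018 RPM per 100 bp in CD4 and 0.012 in CD8 cells. At 2950 bp on that side it had 0.043 and 0.041, so the ratio inside is not directly comparable with that of the flanks. The first 2 kb bin from the centre on the marked side, which takes in part of the domain, reached 1.27 times input in CD4 and 1.43 in CD8 cells. The bin after it reached 3.41 and 3.78. The quiet side had its lowest bin 13 kb away in CD4 cells (0.643 times input) and 15 kb away in CD8 cells (0.603). Beyond that the quiet side climbed again, to 1.59 in CD4 and 1.60 in CD8 cells at 99 kb, where the marked side had come down to 1.83 and 1.81. The choice counted reads to 20 kb from the domain edge. In the bins just before and after 20 kb the quiet side stood at 0.689 and 0.825 in CD4 cells, and 0.652 and 0.799 in CD8 cells. The low quiet side up to that distance and its climb beyond it therefore follow in part from the choice. In two-sided domains the highest bin reached 2.84 times input in CD4 and 2.87 in CD8 cells. The lowest bin, the first from the centre on the quiet side, was at 1.0 and 1.04.

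The ratio between the flanks had a median of 7.11, with quartiles of 5.22 and 10.5, and ran from 4 to 167. In 636 domains it lay between 4 and 5, in 1239 it was at least 8 and in 241 at least 16. The members nearest to the threshold on its inner side were chr13:93379801-93382000 with 200 reads on the marked and 50 on the quiet side, chr14:66915401-66917000 with 556 and 139, and chr16:4558001-4560800 with 276 and 69. Just outside it, at a ratio of 3.99, lay chr14:21870801-21872400 with 499 and 125 reads, chr11:51911801-51913600 with 451 and 113, and chr17:35226001-35227000 with 323 and 81. The 95% interval of the ratio of the first domain inside the threshold ran from 2.92 to 5.57 and that of the first domain outside it from 3.28 to 4.90, so domains on either side of the threshold overlap in what their counts allow. Intervals here are exact unless another kind is named and cover counting error only, since without molecular identifiers several reads can stem from 1 molecule. The interval of a share of domains treats the domains as independent draws and does not cover the spread between libraries.

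The strongest contrasts show what a one-sided flank looks like in each library. At chr7:7250601-7253400 the H3K36me3 reads were 395 on the marked and 2 on the quiet side in CD4 cells, and 442 and 3 in CD8 cells. At chr12:55796201-55797600 they were 328 and 1 in CD4 cells and 346 and 5 in CD8 cells. At chr16:13109401-13110800 they were 509 and 8 in CD4 cells and 529 and 8 in CD8 cells. Both cell types had the reads on the same flank and fewer than 9 on the other in these domains, which were chosen and ranked on these counts. The next in rank were chr2:151319801-151320800 with 383 and 8 reads in CD4 and 426 and 6 in CD8 cells, chr5:48763201-48764200 with 392 and 7 in CD4 and 459 and 10 in CD8 cells, and chr10:86148001-86149000 with 432 and 9 in CD4 and 563 and 12 in CD8 cells. Input was uneven at these places as well. The pooled input held 161 reads on the marked and 13 on the quiet side at chr7:7250601-7253400 (3 of them in CD4 and 10 in CD8 cells), 166 and 43 at chr12:55796201-55797600, and 236 and 126 at chr2:151319801-151320800. Divided by the input ratio, the ratios between flanks of the 6 domains came to between 13.5 and 30.9, against 47.4 to 167 without that division.

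**Figure D2:**
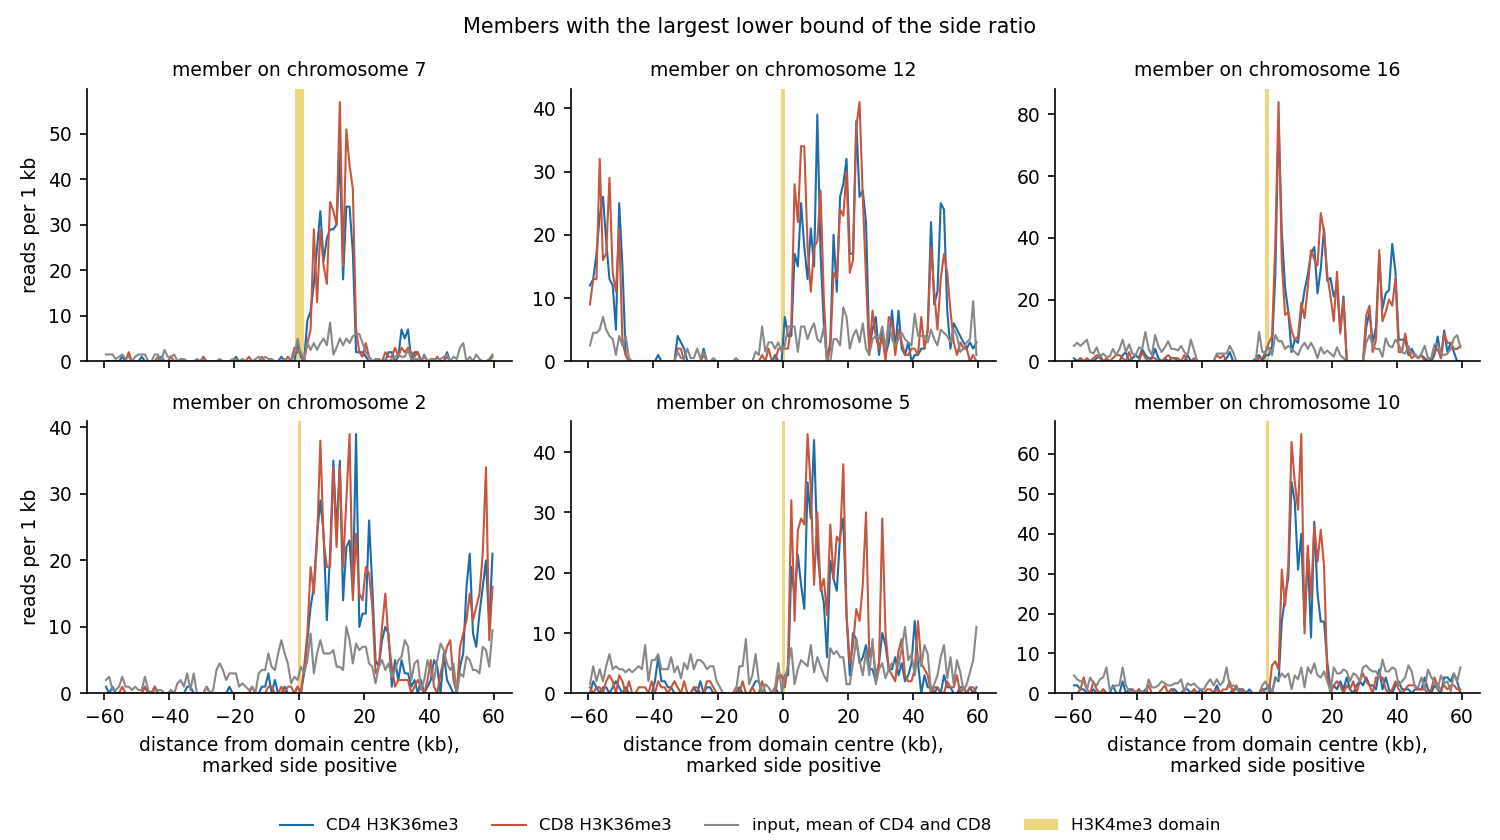
Reads per 1 kb bin of H3K36me3 in CD4 and CD8 cells and the mean of the input libraries, against distance from the domain centre in kb with the marked side positive, for the 6 domains with the largest lower bound of the ratio between flanks. H3K36me3 begins within a few kb of the H3K4me3 domain on the marked side in both cell types, and at chr7:7250601-7253400 the input is also lower on the quiet side.

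CD4 and CD8 cells carried the mark on the same side of every one-sided domain. The marked side was ahead in both cell types in 2989 of 2989 domains, and by at least 4 times in both in 2623 (87.8%). Pooling the cell types in the choice favours this, so the choice was also made in 1 cell type and read in the other. Of 2685 domains chosen with CD4 reads alone, 2684 had more H3K36me3 on the same side in CD8 cells, and 2394 (89.2%, interval 87.9% to 90.3%) had at least 4 times more. Of 2478 chosen with CD8 reads alone, 2478 had the same side ahead in CD4 cells and 2083 (84.1%, interval 82.6% to 85.5%) reached 4 times. The median ratio of the domains chosen in CD4 cells was 6.92 there and 7.40 in CD8 cells, and that of the domains chosen in CD8 cells was 7 there and 6.44 in CD4 cells. Among two-sided domains 2822 of 3605 (78.3%) had the same side ahead in both cell types.

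**Figure D3:**
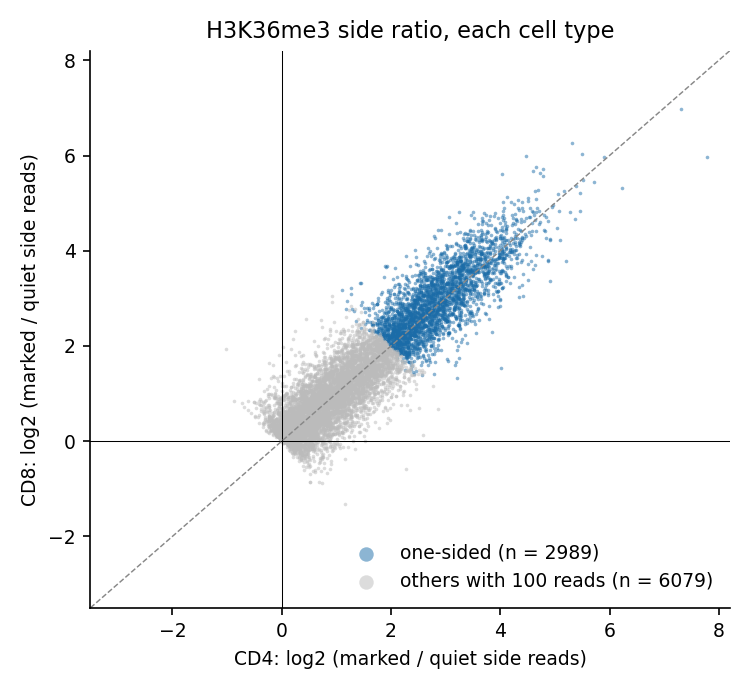
H3K36me3 reads on the marked side over the quiet side in CD8 cells against the same ratio in CD4 cells, on log axes, 1 point per domain. One-sided domains are shown with all other domains that had at least 100 H3K36me3 reads. All one-sided points lie above 1 on both axes and spread around the diagonal.

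The size of the contrast was alike as well, with medians of 6.80 in CD4 (quartiles 5 and 9.94) and 7.38 in CD8 cells (5.31 and 11.2). Across the one-sided domains the ratios of the cell types had a Spearman rho of 0.743 and the marked-side reads a rho of 0.859. These are descriptions over 2989 domains that share libraries and were chosen on the same reads. A ratio at least 2-fold larger in one cell type, with a normal interval at the 0.1% level that excluded equality, was found for CD4 cells in 6 one-sided domains (0.201%), against a background of 0.54% over the 9068 domains. For CD8 cells it was found in 37 (1.24%), against a background of 1.16%.

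H3K36me3 on the marked side went on past the 20 kb that the choice used. Between 20 and 40 kb from the domain the marked side stood at 3.41 times input in CD4 and 3.59 in CD8 cells, and the quiet side at 1.24 and 1.21. Of the one-sided domains, 2426 (81.2%) had more reads on the marked side at this distance, 2430 with CD4 reads alone and 2419 with CD8 reads alone, and 59.2% of two-sided domains did. At least 2 times more on the marked side was found in 1949 (65.2%), against a background of 48.3% over all 9068 domains. The opposite, at least 2 times more on the quiet side, was found in 237 (7.93%), with a background of 14.5%. The background includes the one-sided domains themselves. The difference between the sides faded with distance. At 40 to 60 kb 1964 one-sided domains (65.7%) had more on the marked side, against 55.2% of two-sided domains, and at 60 to 80 kb 1777 (59.5%) did, against 52.5%.

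A run was measured outward from the domain edge as 2 kb bins at 2 times input or more, ending before 3 bins in a row under that level. On the marked side 2983 of the one-sided domains had a run, and 923 (30.9%) had one on the quiet side. It began in the first bin in 1175 domains (39.4%) and within 4 kb in 2551 (85.5%). The median run ended 26 kb from the domain, with quartiles of 18 and 44 kb, and 18 kb away in two-sided domains. Runs of at least 50 kb belonged to 585 one-sided domains (19.6%), against 11.2% of two-sided domains with a run, and runs of at least 100 kb to 75 (2.51%). Runs were found with the pooled H3K36me3 reads that also chose the domains. Their presence on each side and their contrast with two-sided domains therefore follow in part from the choice. Among the one-sided domains the marked-side reads and the run end had a Spearman rho of 0.330. Measured in each cell type, the median end was 28 kb in CD4 and 26 kb in CD8 cells, and in 2093 of 2984 domains (70.1%) the ends lay within 4 kb of each other. The run ended farther out in CD4 cells in 489 domains and in CD8 cells in 402.

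Domains with longer runs differed little in H3K4me3. The median width was 1400 bp with runs under 20 kb, from 20 to 50 kb and of 50 kb or more, and the median H3K4me3 reads were 622.5, 613 and 611 in CD4 cells and 1005, 969 and 1016 in CD8 cells. The marked-side H3K36me3 reads had medians of 406, 603 and 593 in the same order, and the ratio between flanks 6.18, 7.75 and 7.21. A run under 20 kb leaves part of the counted flank outside the run, so these values are not independent of the run length. The distance to the next H3K4me3 domain on the marked side had a median of 37.5, 41.3 and 69.2 kb, while the gap on the quiet side was 52.3, 46.6 and 47.6 kb. The longest run went out to 216 kb from chr4:137548801-137551000 and ended near the next domain, 221 kb away. This domain had 255 H3K36me3 reads on the marked and 28 on the quiet side in CD4 cells, and 214 and 25 in CD8 cells. The run of chr3:36761601-36763200 reached 190 kb with no other domain for 339.8 kb, and that of chr1:10221801-10223800 reached 188 kb with the next domain at 191.2 kb. The run of chr7:82925801-82927600 reached 178 kb and passed over a domain at 77.8 kb. Runs that pass over another H3K4me3 domain, as this one did, made up 723 of 2983 (24.2%).

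The shares of one-sided domains with another H3K4me3 domain nearby were below those of two-sided domains on both sides. Another domain of at least 400 bp lay within 20 kb on the marked side in 640 one-sided domains (21.4%) and on the quiet side in 759 (25.4%), against 33.5% and 36% of two-sided domains. Within 5 kb the counts were 156 on the marked and 217 on the quiet side, and within 50 kb 1589 and 1522. The median gap was 46.2 kb on the marked and 48.2 kb on the quiet side, against 35.4 and 35.0 kb for two-sided domains. A domain on a flank can bring its own H3K36me3 into the count, so this spacing may not be independent of the choice, which was not tested.

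Of 2983 runs of one-sided domains, 964 (32.3%) ended within 5 kb of another domain, and 492 (16.5%) of the positions at the same distance on the quiet side lay that close to one. In two-sided domains the values were 36.3% and 25.8%. With neighbours of at least 1000 bp only, the one-sided values were 25.6% at the run end and 10.1% at the mirrored position. Another member lay within 40 kb of 726 members, and joining those left 2597 loci. In consecutive members 50 to 100 kb apart, the marked sides faced each other in 120 pairs, pointed away from each other in 99 and pointed the same way in 135. Closer pairs share flanks and their orientation is fixed in part by the choice. The side itself had no preference for a direction along the chromosome, with 1509 domains marked on the side of higher coordinates and 1480 on the other.

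H3K4me3 was higher in one-sided than in two-sided domains in both cell types at the same median width of 1400 bp. The median count was 615 reads in CD4 and 988 in CD8 cells in one-sided domains, against 477 and 758 in two-sided domains. When all domains with at least 100 H3K36me3 reads were divided into 5 equal classes by H3K4me3 reads per kb, the share that was one-sided was 18.7%, 29.0%, 38.1%, 39.3% and 39.6% from the lowest to the highest class. Among the one-sided domains the H3K4me3 reads per kb were only weakly related to the H3K36me3 reads on the marked side, with a Spearman rho of 0.110, and the width less so, at 0.0638. Among chromosomes the share of one-sided domains ran from 26.1% on chromosome 12 to 40.2% on chromosome 18.

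Counted with all reads, the H3K4me3 within one-sided domains leaned slightly to the marked side in CD8 but not in CD4 cells, and its shape differed between the sides. More reads lay in the part toward the marked side in 1543 one-sided domains (51.6%, interval 49.8% to 53.4%), against a background of 49.5% over the 9068 domains. By CD4 reads it was 1464 domains (49.0%), with 48.9% over all 9068, and by CD8 reads 1571 (52.6%, interval 50.8% to 54.4%), with 49.6% over all. The share of reads in that part ran from 3.6% to 96.9% with a median of 50.8%. The highest 200 bp bin, by contrast, lay within 400 bp of the centre on the marked side in 1333 domains (44.6%), against a background of 40.9%, and on the quiet side in 1111 (37.2%). Two-sided domains had 39.2% and 39.3%. Farther than 400 bp from the centre the highest bin lay on the marked side in 185 one-sided domains (6.19%) and on the quiet side in 360 (12.0%). With 1 read kept per start position and the domains chosen anew, 52.6% had more reads toward the marked side over both cell types. That share was not taken for each cell type. In CD4 cells the ratio of the sides from 250 to 500 bp was 0.893 with all reads and 1.09 with 1 read kept per position. The difference between the cell types may thus depend on the reads kept.

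**Figure D4:**
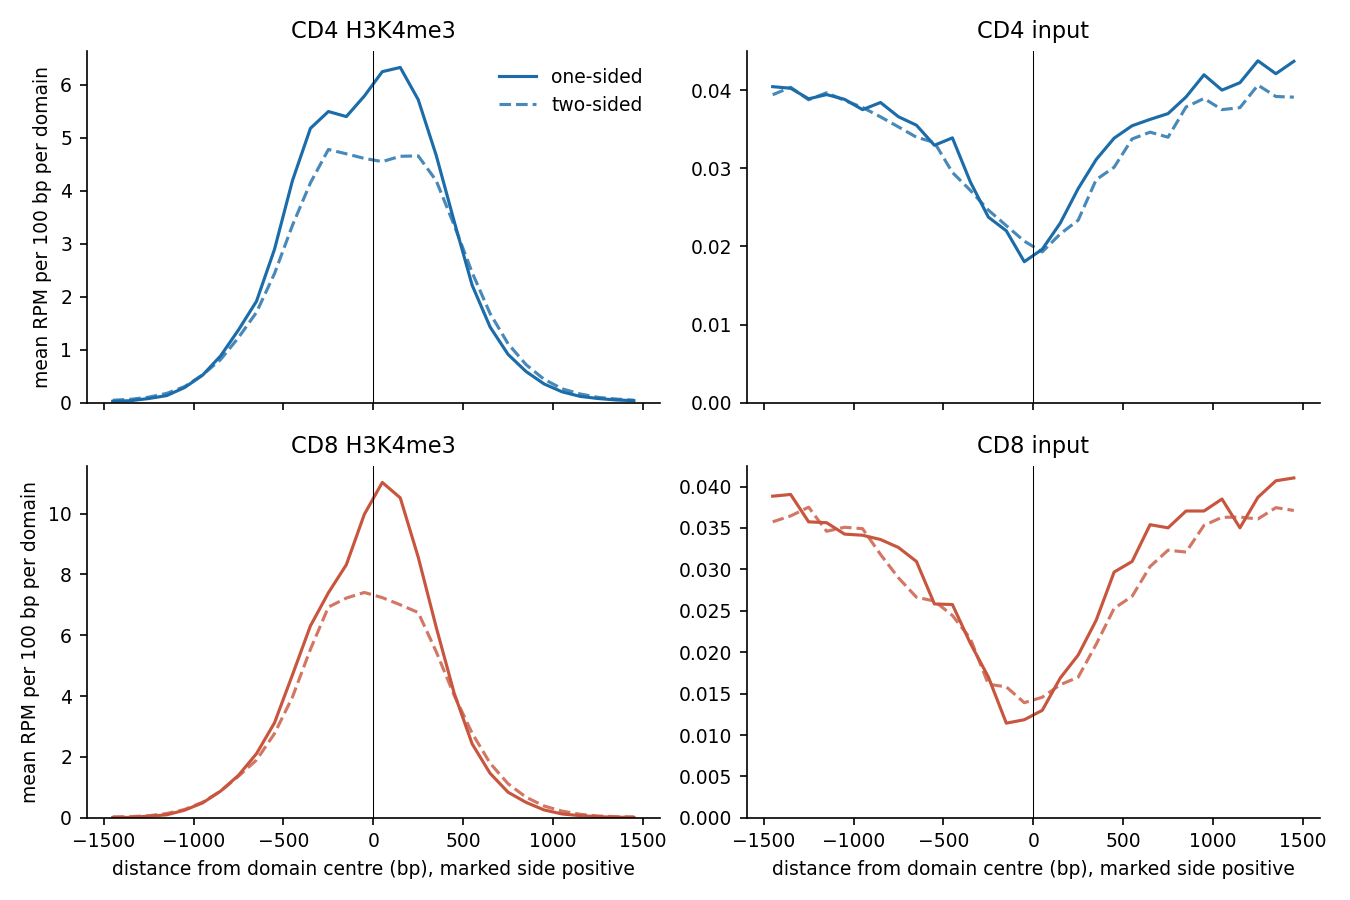
Mean H3K4me3 and input reads in 100 bp bins against distance from the domain centre in bp, marked side positive, for one-sided and two-sided domains in CD4 and CD8 cells. In one-sided domains H3K4me3 peaks on the marked side of the centre, at 150 bp in CD4 and 50 bp in CD8 cells, and has its broader shoulder on the quiet side.

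Summed over the one-sided domains, H3K4me3 was higher on the marked side near the centre and higher on the quiet side farther out. Within 250 bp of the centre the CD4 library had 486131 reads on the marked and 434718 on the quiet side, a ratio of 1.12, and the CD8 library 925703 and 782233, a ratio of 1.18. From 500 to 1000 bp the order turned, with 172849 reads on the marked and 238168 on the quiet side in CD4 cells (ratio 0.726), and 195242 and 283849 in CD8 cells (ratio 0.688). Between these distances, from 250 to 500 bp, the ratio was 0.893 in CD4 and 0.981 in CD8 cells with all reads, but 1.09 and 1.11 with 1 read kept per start position, so its direction there turns with the reads kept. Two-sided domains were nearer to even, with ratios of 0.988 in CD4 and 0.974 in CD8 cells within 250 bp and 0.956 and 0.910 from 500 to 1000 bp. With 1 read kept per start position the outer ratio of the one-sided domains was 0.907 in CD4 and 0.831 in CD8 cells, and the inner ratio 1.17 in both, so the outer difference was smaller without repeated reads. Input moved in the same direction near the centre. Its ratio within 250 bp was 1.10 (interval 1.02 to 1.18) in CD4 and 1.23 (1.13 to 1.35) in CD8 cells, and its part in the H3K4me3 ratio there was not tested. From 500 to 1000 bp the input ratio was 1.05 in CD4 and 1.12 in CD8 cells, above 1 where the H3K4me3 ratio was below it.

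The quiet-side shoulder was seen in the wider one-sided domains. From 500 to 1000 bp the quiet side had more CD4 H3K4me3 reads in 42.1% of one-sided domains of 1000 to 1200 bp, 57.7% of those of 1400 to 1800 bp and 64.1% of those of 2000 to 2800 bp. In two-sided domains of the same widths the shares were 45.6%, 48.4% and 54.7%. In CD8 cells the shares were 37.1%, 53.6% and 61.4% of one-sided domains and 42.9%, 49.5% and 55.5% of two-sided domains. In the narrowest class most of this distance lies outside the domain.

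Single domains could have nearly all their H3K4me3 toward either side. At chr2:155182601-155183800 the part toward the marked side held 544 and the part toward the quiet side 48 H3K4me3 reads in CD4 cells, and 1505 and 18 in CD8 cells, which is 96.9% in all. The same was seen at chr1:162124801-162126000 (96.8%) and chr7:104519601-104520600 (96.2%). At the other end, chr10:87663801-87664800 had 35 reads in the part toward the marked and 609 in the part toward the quiet side in CD4 cells, and 25 and 999 in CD8 cells (3.6%), with another H3K4me3 domain 0.6 kb away on the marked side. The next lowest were chr6:127511201-127512200 (3.81%) and chr2:152673601-152674600 (4.17%). These opposite arrangements were present in both cell types at each of the 2 domains given in full.

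Few one-sided domains differed between the cell types in H3K36me3. Folds were centred on the median over all domains and called at 2-fold or more where an exact interval at the 0.1% level excluded 1. On the marked side 10 domains (0.335%) were higher in CD4 cells, against a background of 1.14%, and 12 (0.401%) were higher in CD8 cells, against a background of 0.452%. The median log2 ratio of CD4 over CD8 was -0.09, with quartiles of -0.30 and 0.18. Among 3605 two-sided domains 56 were called higher in CD4 cells and 11 higher in CD8 cells.

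For H3K4me3, 199 one-sided domains (6.66%) were called higher in CD4 cells, against a background of 9.83% over all 9218 domains, and 52 (1.74%) higher in CD8 cells, against a background of 2.79%. Two-sided domains had 12.4% and 3.22%. The split depends on the scaling: by total reads instead of the median of the domains the rule called 95 domains for CD4 and 495 for CD8, because total-read scaling moves every ratio by 0.54 on the log2 scale toward CD8. With 1 read kept per start position and the domains chosen anew they were 130 and 58. Changes are therefore given relative to the median domain, around which the one-sided domains had a median log2 ratio of -0.03.

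Median H3K36me3 ratios on the marked side were close together whichever way H3K4me3 was called. In the 199 domains called higher in CD4 cells the median log2 ratio was 1.51 for H3K4me3 and -0.11 for H3K36me3. In the 52 called higher in CD8 cells it was -1.22 for H3K4me3 and -0.08 for H3K36me3, and in the 2738 not called it was -0.06 and -0.08. The H3K36me3 ratio was above 0 in 77 of the 199, in 22 of the 52 and in 1134 of the 2738. Both marks were called higher in CD4 cells in 3 domains, both higher in CD8 cells in 2, and 1 domain was called higher in CD4 cells for H3K4me3 and in CD8 cells for H3K36me3. Over all one-sided domains the log2 ratios of the 2 marks had a Spearman rho of -0.0519.

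**Figure D5:**
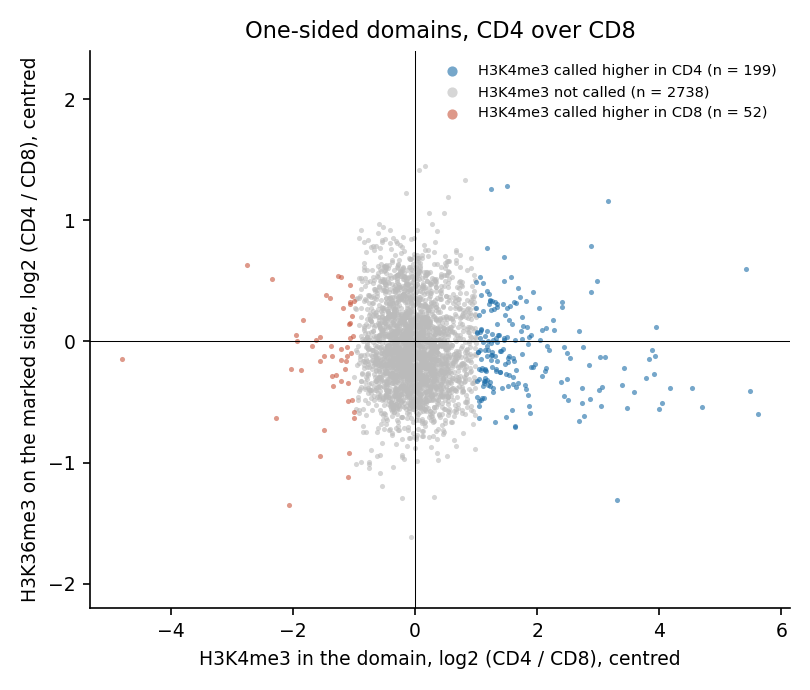
Centred log2 ratio of CD4 over CD8 reads for H3K36me3 on the marked side against the same for H3K4me3 in the domain, 1 point per one-sided domain, coloured by the H3K4me3 call. The 199 domains called higher in CD4 cells and the 52 called higher in CD8 cells spread along the H3K4me3 axis while their H3K36me3 medians, -0.11 and -0.08, stay near 0.

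The domains with the largest H3K4me3 folds are given as examples and support nothing by themselves, since they were picked for that fold and met the H3K4me3 level of a domain mainly through the cell type where they are high. At chr6:3347601-3349600 H3K4me3 had 1029 reads in CD4 and 34 in CD8 cells, 49.8-fold higher in CD4 cells after centring (interval 35.4 to 72.3), while H3K36me3 on the marked side had 116 reads in CD4 and 171 in CD8 cells. At chr10:129759801-129762000 H3K4me3 had 585 and 21 reads and H3K36me3 129 and 167, CD4 first. At chr3:151411601-151413000 H3K4me3 had 143 reads in CD4 and 5 in CD8 cells, and H3K36me3 123 and 79. Each of these flanks was marked in both cell types, while H3K4me3 in CD8 cells was at or under 34 reads. With 1 read kept per start position the centred log2 ratios of H3K4me3 of the 3 domains, in this order, were 3.98, 4.61 and 4.65, against 5.62, 5.49 and 5.42 with all reads.

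The domains with the largest folds toward CD8 cells were picked in the same way and became domains mainly through CD8 reads. At chr5:67751601-67753000 H3K4me3 had 3 reads in CD4 and 160 in CD8 cells, 32.4-fold higher in CD8 cells (interval 10.9 to 158.8), and H3K36me3 had 429 and 463 on the marked side. On the quiet side of this domain H3K36me3 had 47 reads in CD4 and 152 in CD8 cells. The next were chr9:21314001-21315200 with 58 H3K4me3 reads in CD4 and 649 in CD8 cells, and 532 and 335 for H3K36me3, and chr8:125935201-125936600 with 42 and 357 for H3K4me3, and 316 and 215 for H3K36me3, with 33 and 64 on its quiet side. On the marked side of both more H3K36me3 reads were counted in CD4 cells and more H3K4me3 reads in CD8 cells. With 1 read kept per start position the log2 ratio of H3K4me3 at chr9:21314001-21315200 was -1.75, against -2.75 with all reads. The run of chr5:67751601-67753000 ended at 52 kb, with another H3K4me3 domain at 52.6 kb.

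The largest H3K36me3 folds use the reads that chose the domains, and in several the flanks differed by at least 4 times only in the cell type with more reads. At chr15:27785801-27786800 the marked side held 363 reads in CD4 and 132 in CD8 cells, 2.68-fold higher in CD4 cells (interval 2.19 to 3.29), with 279 and 441 H3K4me3 reads, which is 1.04-fold after centring. At chr9:44863001-44864000 it held 289 and 103 reads (2.73-fold), and at chr2:31325401-31326800 347 and 134 (2.52-fold), where H3K4me3 was also higher in CD4 cells, 1.76-fold (interval 1.60 to 1.94). Higher in CD8 cells were chr11:98883801-98886400 with 159 reads in CD4 and 475 in CD8 cells, 3.07-fold (interval 2.56 to 3.69), and chr16:97683201-97684800 with 127 and 303, 2.45-fold. At these 5 domains the H3K4me3 folds were all under 2. At chr3:96616801-96618600 both marks were higher in CD8 cells, with 155 H3K36me3 reads in CD4 and 385 in CD8 cells (2.55-fold) and 49 and 342 H3K4me3 reads (4.24-fold).

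Input was close to even on the flanks of most one-sided domains. Its median ratio of the marked over the quiet side was 1.08, with 5% of domains below 0.782 and 5% above 1.63, and 1.01 in two-sided domains. At least 2 times more input on the marked side was found in 60 one-sided domains (2.01%), against a background of 1.07%, and on the quiet side in 3. With input reads in place of H3K36me3 reads, 11 of the one-sided domains passed the same rule for the flanks. Divided by the input ratio, the H3K36me3 ratio between the flanks kept a value of at least 4 in 2677 one-sided domains (89.6%) and at least 2 in 2983, with a median of 6.71. More than 25% of the marked-side reads fell in a single 1 kb bin in 102 domains.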

How the data were processed

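Each of the 6 libraries was deposited by the authors as a list of aligned reads, each a start and an end 33 bp apart with no strand, score or normalization. The submitters' processing notes name the build as mm9. Which aligner was used, and whether duplicate reads were removed, is not given in the sources used here. The members, comparisons and lists were chosen with earlier results of these data known.

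A read was counted at its midpoint, and RPM scales counts by the library's reads on chromosomes 1 to 19. CD4 and CD8 reads were pooled per mark and for input to find domains: bins of 200 bp reaching 4 times the input in RPM, with the input set to no less than 3 reads, gaps of up to 400 bp joined, and at least 20 H3K4me3 reads. Runs began within 20 kb and were followed to at most 300 kb. CD4 over CD8 log2 ratios had 0.5 reads added to each count. Folds and ratios carry exact (Clopper-Pearson) 95% intervals. The background level came from 819114 windows of 2 kb that had no window with over 9 reads of a mark within 10 kb. Counting rules were tried on simulated data with counting error only, which does not cover repeated reads or uneven input. Alternatives were 1 read per position, other domain, flank, ratio and read thresholds, input subtraction, pile-ups left out, single cell types, total-read scaling and other run rules.

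Named regions were the 6 members with the largest lower bound of the ratio between flanks, the 3 nearest on each side of the threshold, the 3 of each direction with the largest lower bound of the CD4 over CD8 fold for each mark, the 4 longest runs, and the 3 highest and 3 lowest shares of H3K4me3 toward the marked side. No region on chromosome 18 is named, and no one-sided domain had opposite sides ahead in CD4 and CD8. Gene and marker lists were not applied, since no mm9 annotation was used here. The distances beyond 20 kb, the mirrored run end, the division by the input ratio and the shape of H3K4me3 by distance were chosen after seeing the data. The software was SciPy 1.17.1, NumPy 2.4.6, pandas 2.3.3 and matplotlib 3.10.9 under Python 3.11.15.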

Additional observations from a re-analysis of the deposited data

Results flagged for a closer look

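Chromosome X lay outside the chromosomes of the choice and also held one-sided domains when the same rule was applied to it. It held 279 domains of the width class, of which 228 had at least 100 H3K36me3 reads, and 101 of these (44.3%) were one-sided and 52 two-sided. The marked side was ahead in CD4 cells in 101 and in CD8 cells in 101 of the one-sided domains. Pooling the cell types in the choice favours this, and no choice in 1 cell type read in the other is given for this chromosome. With input reads in place of H3K36me3 reads, 1 domain passed.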

How the results depend on the processing

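No paired analysis was possible because each group has 1 library and the labels give no replicate numbers, and for the same reason no replicate could be left out. Of the main values recomputed under the alternatives, 61 stayed within counting error or within 1.5 times of the reported count and 42 moved, and the share with the same side ahead in CD4 and CD8 cells was 99.97% with flanks of 10 kb and 100% in the other alternatives run for it. Of the values of the named regions, 96 kept their side of the threshold, 15 lost it, 1 gained it and none turned round. The cause of each change was not tested.

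The share of one-sided domains was 32.96% as reported, 30.2% with 1 read per position, 29.7% with flanks of 40 kb, 42.8% at a ratio of at least 3, 13.7% (1239 domains) at a ratio of at least 8, 37.4% with at least 200 reads, 47.1% after subtracting input, and 34.1% on CD4 and 34.2% on CD8 libraries alone. The share with more H3K4me3 toward the marked side was 49.4% when chosen on CD4 and 55.0% on CD8 libraries alone. The median log2 ratio of H3K36me3 was -0.064 at a ratio of at least 3, -0.14 at 8 and -0.046 with total-read scaling. For H3K36me3, CD4-higher domains numbered 24 at a ratio of at least 3 and 0 at 8, and CD8-higher domains 19 and 0. The median log2 ratio of H3K4me3 was 0.0041 with 1 read per position and -0.57 with total-read scaling. For H3K4me3, CD4-higher domains numbered 130 with 1 read per position, 75 at a ratio of at least 8 and 95 with total-read scaling, and CD8-higher domains 83 at a ratio of at least 3, 13 at 8 and 495 with total-read scaling.

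The median run end was 30 kb at a ratio of at least 8, 22 kb with bins at 3 times input and 22 kb with gaps of 1 bin. A neighbour within 20 kb was found on the marked side in 24.7% of domains with 1 read per position, 19.3% at 8 times input, 23.1% at a ratio of at least 3 and 14.4% at 8, and on the quiet side in 29.4%, 21.1%, 27.8% and 19.5% in that order. The input ratio was 1.07 at a ratio of at least 3 and 1.10 at 8. In alternatives chosen after seeing the data, the H3K4me3 ratio from 500 to 1000 bp, 0.705 with both libraries pooled, was 0.765 with 1 read per position and domains chosen anew, and with neighbours of at least 1000 bp the run end was near a domain in 25.6% and its mirror in 10.1%.

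Depth limits single domains more than the whole: a quiet side of a few reads fixes the ratio only to a wide interval, and a 2-fold difference is called only where the CD4 and CD8 reads together are enough.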
